A study of Homo sapiens with 18 samples.

Results

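The 10 genes described here are 5 chemokine genes (CXCL1, CXCL2, CXCL3, CXCL8 and CCL20) and 5 genes of the NF-kappaB feedback loop and its subunits (NFKBIA, TNFAIP3, BIRC3, REL and RELB). They were selected by name out of 31004 genes in the count table, after CXCL8 and CXCL3 had been seen at higher levels with the hnRNPK construct in CRLM1 cells. Values of that contrast, and those of CXCL8 and CXCL3 wherever its reference group CRLM1_NC is compared, are therefore given as a description, without a test. All 10 passed the filter on low counts in every comparison.

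The material was HCT116, a line of human colorectal carcinoma cells in wide use, sequenced as 18 RNA libraries. The backgrounds were an empty control (Ctrl), stable overexpression of CRLM1, a long noncoding RNA, and an antisense control (Antisense). CRLM1 was expressed from a lentiviral vector under puromycin selection. In its CRLM1 RNA sequencing the study describes the antisense control as antisense overexpression and the other control as a free plasmid. The submitters thus name both Ctrl and Antisense as controls, although Antisense is itself an overexpression. Each of these backgrounds received an hnRNPK plasmid or a negative control (NC), which gave the groups Ctrl_NC, CRLM1_NC, Antisense_NC, Ctrl_hnRNPK, CRLM1_hnRNPK and Antisense_hnRNPK with 3 replicates each. Whether each stable line was a single clone is not given in the sources used here. No group was labelled as parental HCT116 cells. Whether the Ctrl and Antisense cells went through the same vector and selection as the CRLM1 cells is not given there either. A difference in handling between the backgrounds can thus not be told apart from an effect of the RNA expressed. The design asks what CRLM1 and hnRNPK each change in the transcriptome and whether the background alters the response to hnRNPK, a nucleic acid binding protein.

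NF-kappaB is a family of transcription factor dimers that is held in the cytoplasm by inhibitors such as IkappaBalpha, the product of NFKBIA. Signals from cytokine receptors lead to the loss of the inhibitor, the dimers enter the nucleus, and they bind kappaB sites beside chemokine genes and beside genes of their own inhibitors. In the gut, epithelial and tumor cells are known sources of the neutrophil attractants CXCL1, CXCL2, CXCL3 and CXCL8 and of CCL20, which attracts lymphocytes and dendritic cells.

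The CXC members lie together on chromosome 4. On GRCh38 with Gencode version 44, CXCL8 (ENSG00000169429.10) covers chr4:73740519-73743716 and CXCL1 (ENSG00000163739.4) covers chr4:73869393-73871308, both on the plus strand. CXCL3 (ENSG00000163734.4) at chr4:74036589-74038807 and CXCL2 (ENSG00000081041.8) at chr4:74097040-74099196 lie on the minus strand. CCL20 (ENSG00000115009.11) is at chr2:227805739-227817564 on the plus strand. NFKBIA (ENSG00000100906.10) is on the minus strand of chromosome 14, at chr14:35401079-35404749. The remaining genes are on plus strands: TNFAIP3 (ENSG00000118503.14) at chr6:137867214-137883314, BIRC3 (ENSG00000023445.13) at chr11:102317484-102339403, REL (ENSG00000162924.13) at chr2:60881491-60931612 and RELB (ENSG00000104856.13) at chr19:45001461-45038192. Counts were taken from uniquely mapped reads, and the close relatives CXCL2 and CXCL3 share sequence. Of their 151-base windows, 1.89% for CXCL2 and 1.11% for CXCL3 also occur in another member, so a small part of their signal could not be assigned uniquely. No such window was found in the other 8 genes.

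The stretch around the kappaB match is shown for each member with a promoter in the RefSeq table (GRCh38.p14, 9 of 10 members, not RELB), because a shared site before the gene start is what links these genes in the textbook pathway. Each line is 30 bases of the strand of the gene, 5′ to 3′. Capitals mark the kappaB consensus on either strand or, in CXCL8, which lacks the full consensus in its window, the 9-base core ggaatttcc.
CXCL1: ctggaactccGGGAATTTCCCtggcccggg
CXCL2: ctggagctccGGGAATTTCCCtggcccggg
CXCL3: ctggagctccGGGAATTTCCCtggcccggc
CXCL8: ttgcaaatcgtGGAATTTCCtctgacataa
CCL20: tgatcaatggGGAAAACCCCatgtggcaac
NFKBIA: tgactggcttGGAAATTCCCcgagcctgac
TNFAIP3: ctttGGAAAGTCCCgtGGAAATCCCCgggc
BIRC3, distal: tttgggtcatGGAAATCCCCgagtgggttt
BIRC3, proximal: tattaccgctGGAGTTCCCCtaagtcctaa
REL: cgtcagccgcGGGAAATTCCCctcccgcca

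These stretches are chr4:73869304-73869333 (CXCL1, plus strand), chr4:74099254-74099283 (CXCL2, minus strand), chr4:74038749-74038778 (CXCL3, minus strand) and chr4:73740467-73740496 (CXCL8, plus strand). The others are chr2:227813753-227813782 (CCL20, plus strand), chr14:35404811-35404840 (NFKBIA, minus strand), chr6:137867188-137867217 (TNFAIP3, plus strand), chr11:102317275-102317304 and chr11:102317339-102317368 (BIRC3, plus strand) and chr2:60881517-60881546 (REL, plus strand). The marked letters are identical in CXCL1, CXCL2 and CXCL3 and begin 79, 78 and 79 bases before the RefSeq start. The CXCL8 core begins 91 bases before it. Over their 300 bases the promoters of CXCL1 and CXCL3 were 82.5% identical in a global alignment, those of CXCL1 and CXCL2 71.9%, and those of CXCL1 and CXCL8 45.2%. The RefSeq start lies downstream of the Gencode gene start by 118 bases in CXCL3, 50 in CXCL8, 83 in REL, 45 in TNFAIP3 and 8103 in CCL20. The marked letters of CXCL3, REL and CCL20 are thus before the RefSeq start but inside the Gencode gene span.

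The kappaB consensus was searched by name on both strands from 250 bases before to 50 bases after the start. It was found in 8 of the 9 members and in 5.91% of 35116 promoters of the same length. The core GGAATTTCC, chosen after the sequences of these promoters had been read and contained in the longer match of 5 members, was found in 0.461% of them. The AP-1 motif TGACTCA (4.95% of promoters) was present in CXCL8, where it began 137 bases before the start. The TATA motif TATAAA (11.5% of promoters) was present in CXCL8, CCL20 and, on the opposite strand, NFKBIA. A match describes the letters of the window and was not measured as a bound site.

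**Figure D1:**
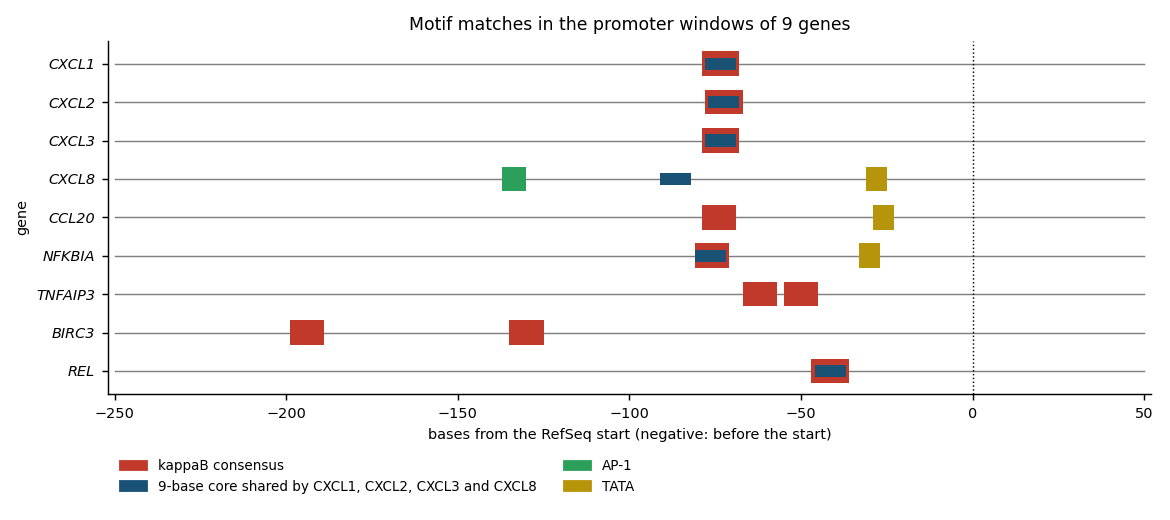
Positions of motif matches in the promoter windows of 9 genes, with bases from the RefSeq start on the horizontal axis (negative before the start) and 1 row per gene. Red boxes are the kappaB consensus, blue boxes the 9-base core, green boxes AP-1 and yellow boxes TATA. The red boxes of CXCL1, CXCL2, CXCL3, CCL20 and NFKBIA all begin 78 to 81 bases before the start.

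Total counts per library ranged from 19732681 to 27039520. HNRNPK ran from 424 to 480 CPM (reads scaled to a common library size) over the NC libraries and from 491 to 713 with the construct. By replicate it was at 617, 644 and 491 CPM in Ctrl_hnRNPK and at 671, 713 and 571 in CRLM1_hnRNPK. In Antisense_hnRNPK it was at 540, 532 and 583 CPM. Replicate 3 of Ctrl_hnRNPK thus lay near the Ctrl_NC libraries, at 463 to 480 CPM. In FPKM it was at 110.68, beside 106.34 to 110.51 in Ctrl_NC. The CRLM1 gene (LINC01767, listed as RP4-710M16.2) had 0 counts in the Ctrl groups, which allows up to 0.151 CPM in a library (3 counts, counting error only). It was at 580 to 658 CPM in CRLM1_hnRNPK and at 587 to 608 in CRLM1_NC. Its mean was 49.8 CPM in Antisense_NC and 42.2 CPM in Antisense_hnRNPK. Replicate 3 of Ctrl_hnRNPK and of CRLM1_hnRNPK stood apart. Pearson's r across 12959 genes was 0.954 to 0.960 between Ctrl_hnRNPK replicate 3 and the other libraries of its group, but 0.992 to 0.993 between it and Ctrl_NC. The same values for CRLM1_hnRNPK replicate 3 were 0.946 to 0.953 and, against CRLM1_NC, 0.987. The study left both libraries out. Here they were kept, and values without them are given beside the results on the hnRNPK response in Ctrl and CRLM1 cells. Of 10 epithelial markers, 8 to 10 were above 3 counts in every library of a group, with summed levels of 3738 to 9885 CPM over the libraries. The 7 leukocyte markers listed of 10 summed to 2.27 to 7.25 CPM and the 10 stromal markers to 15.9 to 38.4 CPM, and PTPRC, which defines leukocytes, was at 0 in the 4 groups CRLM1_NC, Antisense_NC, Ctrl_hnRNPK and CRLM1_hnRNPK.

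Among the NC libraries, the Antisense cells held the highest chemokine levels. CXCL8 was at 55.1, 49.9 and 50.5 CPM in Ctrl_NC and at 124, 127 and 122 CPM in Antisense_NC. CXCL1 was at 34.7, 33.0 and 35.0 CPM in Ctrl_NC and at 78.0, 75.9 and 78.5 CPM in Antisense_NC. The replicates lay close together and the groups were far apart for both genes. CXCL8 rose by 1.22 on the log2 scale (SE 0.05, adjusted p = 5.24e-22) and CXCL1 by 1.13 (SE 0.06, adjusted p = 4.41e-19), with adjusted p from edgeR's quasi-likelihood test and Benjamini-Hochberg adjustment over all genes here and below.

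The less abundant chemokines showed the same order. CXCL2 was at 4.57, 4.04 and 4.68 CPM in Ctrl_NC and at 9.73, 9.41 and 10.7 CPM in Antisense_NC, a rise of 1.12 (SE 0.14, adjusted p = 1.33e-08). CXCL3 went from 5.34, 6.44 and 5.30 CPM to 14.6, 15.1 and 15.9 CPM, a rise of 1.35 (SE 0.12, adjusted p = 5.17e-12). CCL20 went from 1.98, 2.00 and 2.85 CPM to 8.66, 7.68 and 8.96 CPM, a rise of 1.83 (SE 0.18, adjusted p = 1.81e-11). No Antisense_NC library overlapped Ctrl_NC for any of the 5 chemokines.

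The feedback genes moved less, with REL as the exception. REL, which encodes the c-Rel subunit, was at 27.0, 27.8 and 25.9 CPM in Ctrl_NC and at 70.9, 74.97 and 56.2 CPM in Antisense_NC, a rise of 1.28 (SE 0.08, adjusted p = 3.69e-14). RELB, the subunit of the noncanonical pathway, rose by 0.27 (adjusted p = 5.78e-07). BIRC3, which encodes the ubiquitin ligase cIAP2, rose by 0.27 (adjusted p = 2.40e-07). TNFAIP3, whose product A20 shuts off NF-kappaB signalling, rose by 0.20 (adjusted p = 5.25e-04). NFKBIA moved against the others: it was at 503, 521 and 508 CPM in Ctrl_NC and at 387, 391 and 400 CPM in Antisense_NC, with no overlap, and fell by 0.43 (SE 0.03, adjusted p = 3.61e-14). With the trend over GC content and gene length removed, BIRC3 turned to −0.11 (adjusted p = 4.71e-03), while the other 9 members kept their direction.

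All 10 members passed the test between Antisense_NC and Ctrl_NC, 9 higher and 1 lower. Of all 14389 genes tested 66.5% passed, 34.4% higher and 32.2% lower, so passing the test was common in this comparison. The size set the chemokines further from the background. Past 2-fold as well were 6 members (the 5 chemokines and REL) against 14.1% of genes, and the median log2 fold change was 1.13 over the members and 0.00 over all genes. The groups did not overlap for 9 members on the higher side, as for 38.2% of genes, and for 1 on the lower side, as for 30.7%. In a single fit of all 18 libraries, TNFAIP3, BIRC3 and RELB no longer passed (adjusted p of 0.34, 0.39 and 0.47).

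**Figure D2:**
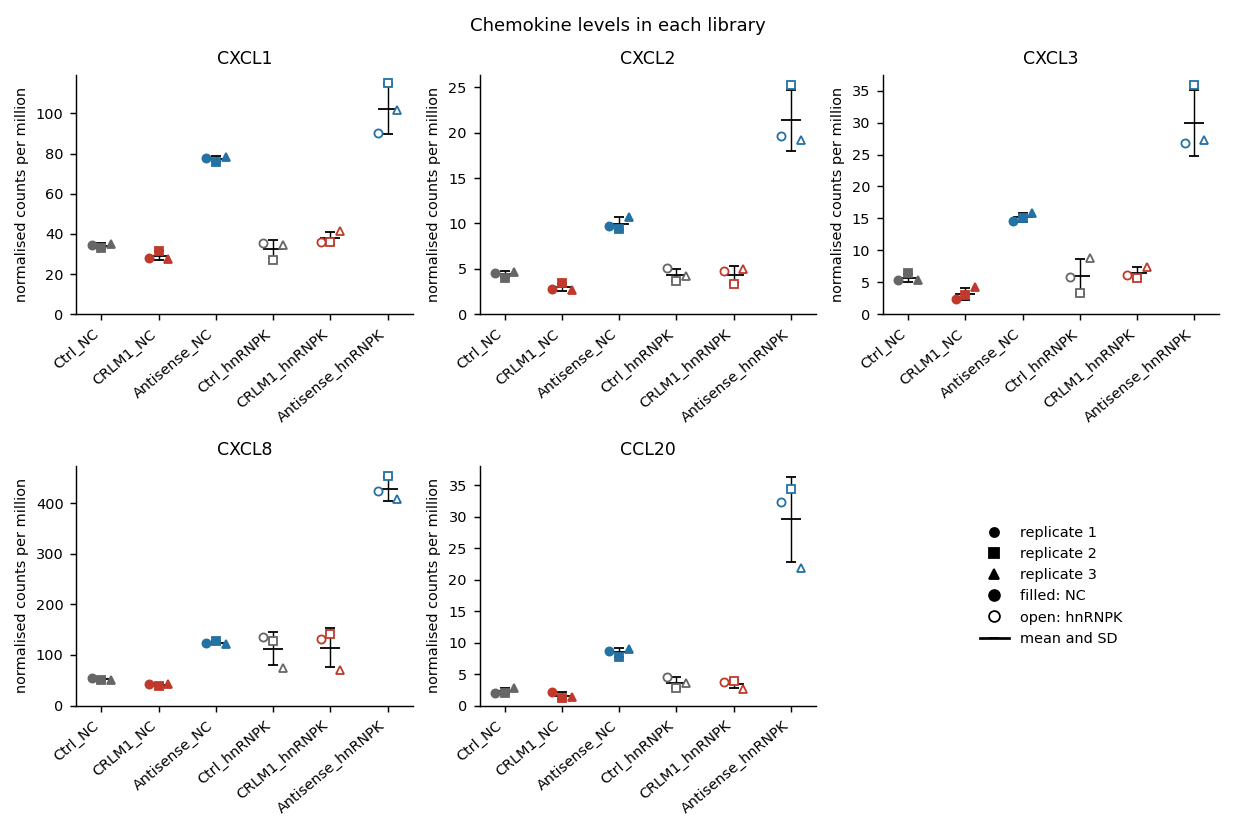
Normalised CPM of the 5 chemokines in each of the 18 libraries, in 6 groups, on linear axes that start at 0. Symbols mark replicates, filled for NC and open for hnRNPK, and bars give mean and SD (n = 3). Antisense_NC lies above Ctrl_NC and CRLM1_NC for every chemokine, and Antisense_hnRNPK is the highest group in each panel.

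CRLM1 cells stood at the other end of the range. In CRLM1_NC, CXCL8 was at 42.9, 38.2 and 43.4 CPM and CXCL1 at 28.3, 31.7 and 27.5 CPM, below every Ctrl_NC library. CXCL2 was at 2.79, 3.45 and 2.65 CPM and CXCL3 at 2.38, 2.95 and 4.23 CPM. The log2 fold changes against Ctrl_NC were −0.33 for CXCL8 (SE 0.06) and −0.87 for CXCL3 (SE 0.20), which were not tested because low values in CRLM1_NC entered the choice of these genes. CXCL1 fell by 0.24 (SE 0.07, adjusted p = 9.46e-03) and CXCL2 by 0.59 (SE 0.20, adjusted p = 0.0202). CCL20, at 2.16, 1.13 and 1.43 CPM, overlapped Ctrl_NC and had a log2 fold change of −0.55 (SE 0.29, adjusted p = 0.140). The other 8 genes were added by name to CXCL8 and CXCL3 and share these CRLM1_NC libraries with them, so their tests are not independent evidence of low chemokine levels in CRLM1_NC.

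Among the feedback genes, NFKBIA was lower in CRLM1_NC by nearly the same amount as in Antisense_NC. Its levels were 372, 380 and 377 CPM, and it fell by 0.45 (SE 0.03, adjusted p = 2.31e-15). REL rose by 0.61 (SE 0.08, adjusted p = 4.12e-08), with 47.4, 39.2 and 37.8 CPM in CRLM1_NC. TNFAIP3 rose by 0.26 (adjusted p = 4.54e-03), while BIRC3 and RELB had log2 fold changes of 0.03 and 0.06 (adjusted p of 0.512 and 0.286). The Ctrl_NC libraries are shared with the comparison above.

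Between CRLM1_NC and Ctrl_NC 5 of the 8 members tested passed, 2 higher and 3 lower, against 34.3% of 14459 genes, 16.9% higher and 17.4% lower. No member reached 2-fold, a size that 1.58% of genes reached. Groups were free of overlap for 3 of the 8 on the higher side (23.8% of genes) and for 3 on the lower side (20.3% of genes). In a single fit of all 18 libraries, in which the hnRNPK libraries set part of the spread, 0 of the 8 passed this comparison, with adjusted p from 0.190 for NFKBIA upward. Few genes of any kind passed in that fit: 53 higher and 49 lower of 15668. Without CRLM1_NC replicate 3, 3 of the 8 passed, beside 2324 genes higher and 2375 lower of 14805.

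The calls on CXCL2 and CXCL1 were the least stable of these. CXCL2 lost the call by DESeq2 (adjusted p = 0.0543) and without CRLM1_NC replicate 1 or 3 or Ctrl_NC replicate 1 or 3 (adjusted p from 0.0546 to 0.0752). CXCL1 lost it without CRLM1_NC replicate 3 (adjusted p = 0.0534) and by limma on both FPKM scales (adjusted p of 0.0823 and 0.0848). CCL20 gained a call without CRLM1_NC replicate 1 (adjusted p = 0.0453), and RELB gained one with the GC and length trend removed, at 0.17 (adjusted p = 1.15e-03).

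Set directly against Antisense_NC, CRLM1_NC held less of every chemokine, with log2 fold changes from −1.37 for CXCL1 to −2.37 for CCL20. For CXCL3 the log2 fold change was −2.22 (SE 0.15), with means of 15.2 and 3.19 CPM, and for CXCL8 it was −1.55 (SE 0.05), both without a test for the same reason. Tests of the other members share the CRLM1_NC libraries with these genes, so they are not independent evidence of low levels in CRLM1_NC. CXCL2 fell by 1.71 (SE 0.16, adjusted p = 1.67e-11), and REL by 0.66 (SE 0.11, adjusted p = 3.49e-04). BIRC3 and RELB fell by 0.23 and 0.21 (adjusted p of 4.90e-05 and 1.72e-04). NFKBIA and TNFAIP3 had log2 differences of −0.02 (SE 0.03) and 0.06 (SE 0.05), with adjusted p of 0.597 and 0.401. TNFAIP3 passed without CRLM1_NC replicate 3, at 0.13 (adjusted p = 0.0450). NFKBIA passed as lower on the 2 FPKM scales, at −0.19 on each (adjusted p of 1.11e-03 and 1.30e-03 by limma), and with the GC and length trend removed, at −0.08 (adjusted p = 0.0374).

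In this comparison 6 of the 8 members tested passed, all lower, against 56.4% of 14364 genes and 29.5% lower. Past 2-fold were 3 of them (CXCL1, CXCL2 and CCL20), against 7.18% of genes. For 7 of the 8 every CRLM1_NC library was below every Antisense_NC library, as for 34.2% of genes. In the single fit of all libraries 3 of the 8 passed, and BIRC3, REL and RELB did not (adjusted p of 0.541, 0.105 and 0.651). Of all 15668 genes in that fit 1001 passed higher and 1356 lower. BIRC3 changed sign, to 0.06 (adjusted p = 0.203), once the GC and length trend was removed.

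**Figure D3:**
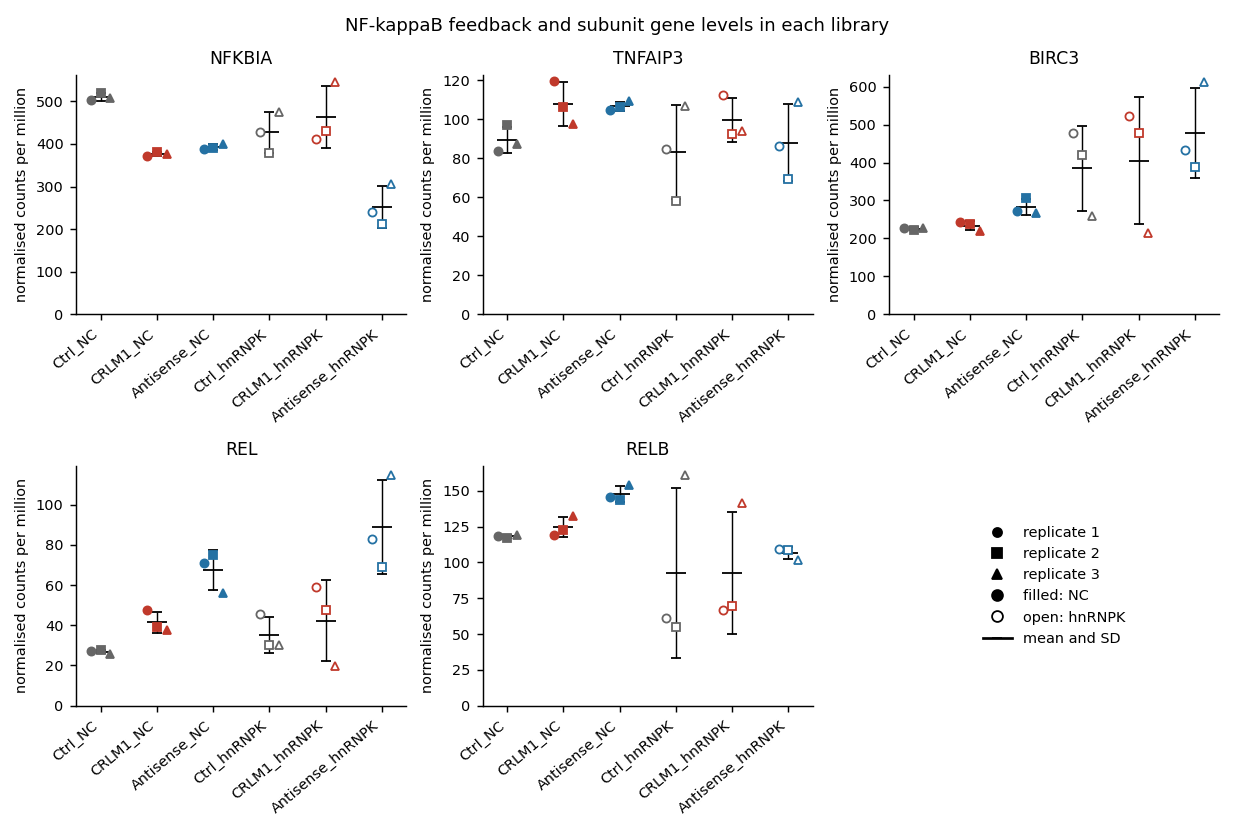
Normalised CPM of NFKBIA, TNFAIP3, BIRC3, REL and RELB in each library, drawn as for the chemokines with mean and SD (n = 3). NFKBIA is lowest in Antisense_hnRNPK (212 to 307 CPM) and highest in mean level in Ctrl_NC. The third hnRNPK libraries of Ctrl and CRLM1 lie away from their replicates for BIRC3 and RELB.

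The hnRNPK construct in Antisense cells gave the highest chemokine levels of the series. CXCL8 reached 423, 453 and 408 CPM in Antisense_hnRNPK, where the NC libraries had 122 to 127 CPM, and rose by 1.78 (SE 0.08, adjusted p = 3.34e-08). CCL20 reached 32.4, 34.4 and 21.9 CPM and rose by 1.81 (SE 0.17, adjusted p = 8.19e-07). Every hnRNPK library lay above every NC library for both genes.

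CXCL2 reached 19.7, 25.3 and 19.2 CPM, a rise of 1.10 (SE 0.13, adjusted p = 7.03e-06). CXCL3 reached 26.8, 35.8 and 27.2 CPM, a rise of 0.98 (SE 0.13, adjusted p = 1.10e-05). CXCL1 reached 90.1, 115 and 102 CPM, a rise of 0.40 (SE 0.09, adjusted p = 1.72e-03). CXCL1 thus moved least among the chemokines, although its groups did not overlap either.

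The inhibitors went the other way. NFKBIA was at 239, 212 and 307 CPM with hnRNPK and fell by 0.65 (SE 0.11, adjusted p = 1.02e-04), and all 3 values were below the Antisense_NC libraries. TNFAIP3 was at 86.0, 69.1 and 109 CPM and fell by 0.29 (SE 0.12, adjusted p = 0.0449), with 1 library inside the NC range. RELB was at 110, 109 and 102 CPM and fell by 0.47 (SE 0.08, adjusted p = 9.36e-05). BIRC3, at 433, 389 and 612 CPM, rose by 0.75 (SE 0.13, adjusted p = 1.98e-04). REL, at 82.7, 69.1 and 115 CPM, overlapped the NC libraries and had a log2 fold change of 0.39 (SE 0.16, adjusted p = 0.0576).

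Of the 10 members 9 passed between Antisense_hnRNPK and Antisense_NC, 6 higher and 3 lower, against 63.9% of 14501 genes, 33.4% higher and 30.5% lower. CXCL8, CCL20 and CXCL2 were also past 2-fold, a size that 13.4% of genes reached. No overlap was seen for 6 members on the higher side (35.4% of genes) and for 2 on the lower side (33.1% of genes). TNFAIP3 lost the call when any library other than Antisense_hnRNPK replicate 3 was left out (adjusted p from 0.0747 to 0.118), and by limma on both FPKM scales (adjusted p of 0.722 and 0.732). The single fit of all 18 libraries passed neither TNFAIP3 nor RELB (adjusted p of 0.235 and 0.230). REL gained the call without Antisense_hnRNPK replicate 2 (adjusted p = 2.99e-03) or Antisense_NC replicate 2 (adjusted p = 0.0451), by DESeq2 (adjusted p = 0.0419), without the low-count filter (adjusted p = 1.62e-04) and by limma on the FPKM scales (adjusted p of 0.0212 and 0.0254). The median was 0.58 over the members, 1.10 over the chemokines, −0.29 over the feedback genes and 0.04 over all genes.

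GC content moved with the hnRNPK response across the whole table and among the members. Spearman's rho was taken between the log2 fold change and the GC content of the gene. It was −0.71 over 14501 genes in the Antisense background, −0.71 in Ctrl and −0.63 in CRLM1. Over the 10 members it was −0.77 in Antisense, −0.92 in Ctrl and −0.70 in CRLM1. Without replicate 3 of the hnRNPK group it was −0.74 in Ctrl and −0.76 in CRLM1 over all genes tested. Over the members it was then −0.99 in Ctrl and −0.84 in CRLM1. These are descriptions, and the points share libraries and depth. CXCL8 has 32.5% GC, CCL20 35.5%, BIRC3 35.8%, REL 38.7%, CXCL2 44.7%, CXCL1 45.4%, TNFAIP3 47.8%, CXCL3 50.5%, NFKBIA 52.1% and RELB 64.9%. After removal of the GC and length trend in Antisense cells, CXCL8 was still higher by 1.07 (SE 0.08, adjusted p = 5.16e-06), CCL20 by 1.08 (adjusted p = 2.76e-04), CXCL3 by 1.00 (adjusted p = 6.51e-05) and CXCL2 by 0.72 (adjusted p = 9.54e-04). NFKBIA was still lower, at −0.47 (adjusted p = 7.51e-03), and TNFAIP3 at −0.38 (adjusted p = 0.0269). CXCL1 and BIRC3 no longer passed, at 0.07 and 0.04 (adjusted p of 0.591 and 0.807). RELB and REL changed sign, to 0.17 and −0.28 (adjusted p of 0.0671 and 0.134).

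**Figure D4:**
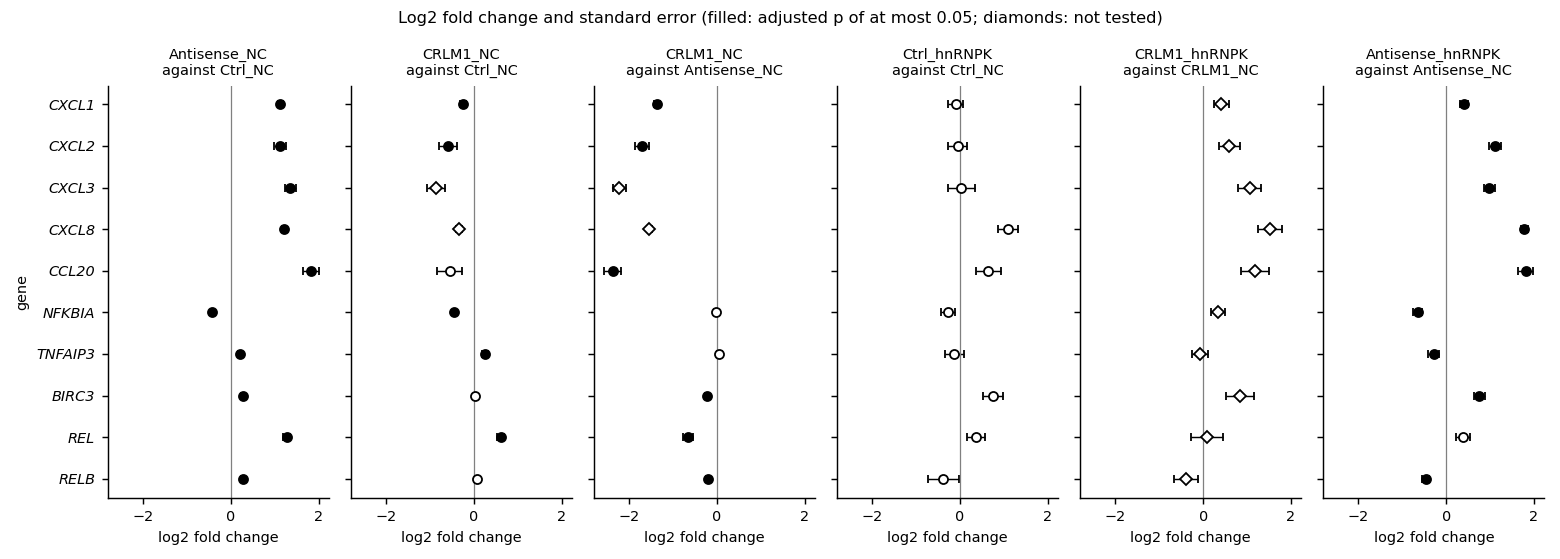
Log2 fold change of each gene (horizontal axis) with its standard error in 6 comparisons of 3 against 3 libraries. Filled circles had an adjusted p of at most 0.05, open circles did not, and diamonds mark values that entered the choice of the genes and were not tested. The 5 chemokines are to the right of 0 in Antisense_NC against Ctrl_NC and in Antisense_hnRNPK against Antisense_NC, and to the left of 0 in CRLM1_NC against Antisense_NC.

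In Ctrl cells the response to hnRNPK varied strongly between libraries. CXCL8 was at 135, 127 and 75.1 CPM in Ctrl_hnRNPK, where the 3 Ctrl_NC libraries had 49.9 to 55.1 CPM. BIRC3 was at 477, 419 and 260 CPM, above 223 to 228 CPM in Ctrl_NC, and REL at 45.4, 30.3 and 29.9 CPM, above 25.9 to 27.8 CPM. These 3 genes were higher in every hnRNPK library, and in each of them replicate 3 lay nearest to the controls. RELB was at 61.2, 55.1 and 161 CPM around Ctrl_NC levels of 117 to 119, so replicate 3 was on the opposite side.

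No gene of 14607 passed in Ctrl_hnRNPK against Ctrl_NC by edgeR (smallest adjusted p = 0.320), although 2246 had an unadjusted p under 0.05, so 0 of the 10 members passed against a background of 0.0%. DESeq2 passed 1 of 26849 genes, the member CXCL8. The fit without a low-count filter passed 248 genes higher and 5 lower of 26849, among them the members CXCL8 and BIRC3. The log2 fold changes were 1.10 for CXCL8 (SE 0.23), 0.75 for BIRC3 (SE 0.23), 0.65 for CCL20 (SE 0.28), −0.28 for NFKBIA (SE 0.16) and −0.38 for RELB (SE 0.35). CXCL1, CXCL2 and CXCL3 were at −0.10, −0.06 and 0.03, with SE of 0.17, 0.22 and 0.32. With the GC and length trend removed, CXCL8 was at 0.62, BIRC3 at 0.27, CCL20 at 0.18, NFKBIA at −0.12 and RELB at −0.14. Groups did not overlap for 3 members on the higher side, against 12.5% of genes, and for 1 on the lower side (NFKBIA), against 8.11%.

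Without Ctrl_hnRNPK replicate 3, 6 of the 10 members passed, 4 higher and 2 lower, and so did 59.6% of 15004 genes, 29.6% higher and 29.9% lower, so the members' share was that of all genes. CXCL8 rose by 1.36 (adjusted p = 5.36e-10), BIRC3 by 1.01 (adjusted p = 1.33e-09), CCL20 by 0.71 (adjusted p = 0.0320) and REL by 0.51 (adjusted p = 4.01e-03). RELB fell by 1.00 (adjusted p = 6.41e-09) and NFKBIA by 0.32 (adjusted p = 2.07e-04). CXCL1, CXCL2 and CXCL3 did not pass in either fit.

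In CRLM1 cells the contrast that chose the genes is given as levels and log2 fold changes, without a test. CXCL8 was at 131, 142 and 70.5 CPM in CRLM1_hnRNPK, where CRLM1_NC had 38.2 to 43.4 CPM, a log2 fold change of 1.52 (SE 0.28). CXCL3 was at 6.22, 5.65 and 7.41 CPM against 2.38 to 4.23, a log2 fold change of 1.06 (SE 0.26). CCL20, at 3.75, 3.93 and 2.68 CPM, had 1.18, and BIRC3, at 523, 478 and 214 CPM, had 0.85. CXCL2 and CXCL1 had 0.59 and 0.42.

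NFKBIA was at 412, 429 and 546 CPM in CRLM1_hnRNPK, above all CRLM1_NC libraries, with a log2 fold change of 0.34. RELB was at 67.0, 69.6 and 142 CPM and REL at 59.2, 47.8 and 19.9 CPM, and in both the third replicate lay on the opposite side of the NC mean from the others. TNFAIP3 had −0.07, REL 0.08 and RELB −0.39. Groups did not overlap on the higher side for 5 members, against 6.67% of genes, and on the lower side for 0 members, against 8.54%, and nothing is read from these counts because the contrast chose the genes. Without CRLM1_hnRNPK replicate 3 the log2 fold changes were 1.77 for CXCL8, 0.95 for CXCL3, 1.33 for CCL20, 0.49 for CXCL2 and 0.35 for CXCL1. They were then 0.21 for NFKBIA, −0.03 for TNFAIP3, 1.15 for BIRC3, 0.41 for REL and −0.82 for RELB. With all libraries and the GC and length trend removed, CXCL8 was at 1.08, CXCL3 at 1.07, CCL20 at 0.76, BIRC3 at 0.43, CXCL1 at 0.25, RELB at −0.17 and REL at −0.32.

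**Figure D5:**
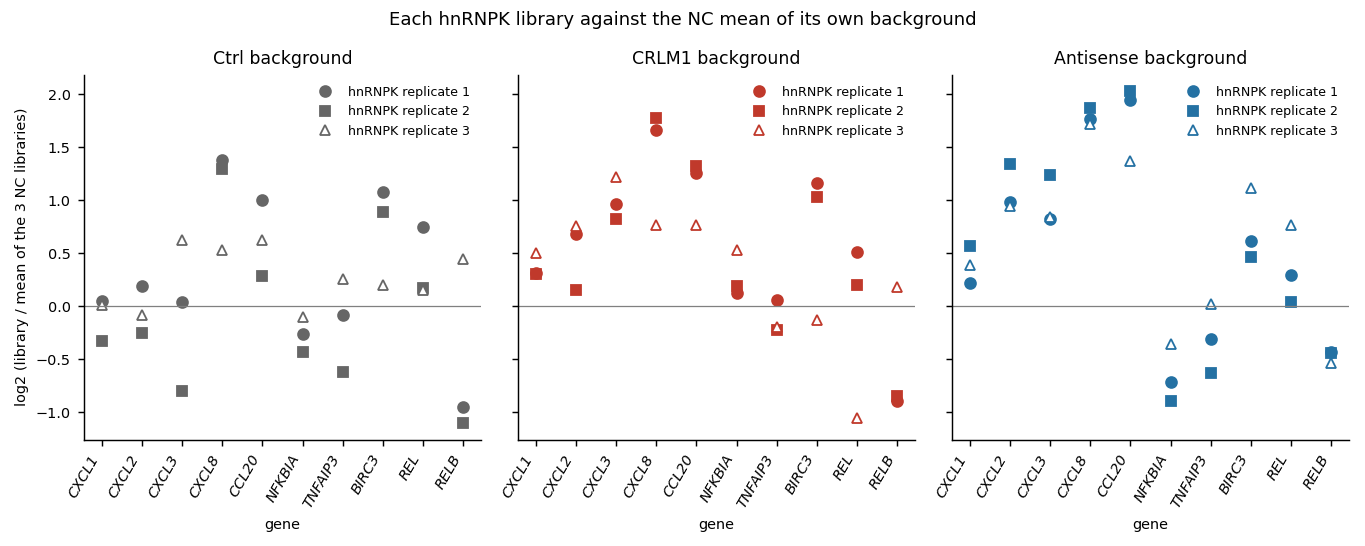
Log2 ratio of each hnRNPK library to the mean of the 3 NC libraries of its own background (vertical axis) for the 10 genes, in 1 panel per background. Open triangles are replicate 3. In Ctrl and CRLM1 the triangle lies below its replicates for CXCL8 and BIRC3 and above them for RELB, and in Antisense the 3 libraries lie together for CXCL8 (1.72 to 1.87).

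The hnRNPK response in Antisense cells was compared with that in Ctrl cells by the interaction term, which uses backgrounds the choice of genes did not. The difference was positive for all 5 chemokines: 1.13 for CCL20 (SE 0.32), 1.12 for CXCL2 (SE 0.24), 0.92 for CXCL3 (SE 0.34), 0.65 for CXCL8 (SE 0.25) and 0.47 for CXCL1 (SE 0.19) on the log2 scale. None passed, with adjusted p from 0.103 for CXCL2 to 0.292 for CXCL1. NFKBIA differed by −0.39 (SE 0.20, adjusted p = 0.385), and the other 4 by −0.19 to 0.00. By edgeR 0 of 15346 genes passed (background 0.0%, smallest adjusted p = 0.0652), with 2179 at an unadjusted p under 0.05. DESeq2 passed 2 members, CXCL2 and CCL20, among 143 genes higher and 146 lower of 29494.

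Without Ctrl_hnRNPK replicate 3, 6 of the 10 members passed this test, namely the 5 chemokines and RELB, all higher, against 6.62% of 15743 genes, 2.85% higher and 3.77% lower. CXCL3 then differed by 1.27 (adjusted p = 5.82e-03), CXCL2 by 1.07 (adjusted p = 9.32e-03), CCL20 by 1.09 (adjusted p = 0.0392), CXCL8 by 0.40 (adjusted p = 0.0286) and CXCL1 by 0.48 (adjusted p = 0.0498). RELB, at −0.12 with all libraries, was at 0.51 (adjusted p = 8.24e-03). Without the third hnRNPK library of both backgrounds 8 passed, 6 higher and 2 lower, against 16.0% of 15695 genes, 6.58% higher and 9.47% lower, with NFKBIA at −0.48 (adjusted p = 2.09e-03) and BIRC3 at −0.47 (adjusted p = 4.06e-03) added.

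Over the 6 groups the order of mean levels differed between the members. CXCL8 ran from 41.5 ± 2.89 CPM in CRLM1_NC through 51.8 ± 2.86 in Ctrl_NC, 112 ± 32.4 in Ctrl_hnRNPK, 115 ± 38.5 in CRLM1_hnRNPK and 124 ± 2.49 in Antisense_NC to 428 ± 22.9 in Antisense_hnRNPK (SD, n = 3). Its 3 middle groups overlapped with all libraries. Without the third hnRNPK libraries of Ctrl and CRLM1 the order of these groups changed: Antisense_NC came before Ctrl_hnRNPK (mean 131 CPM, 2 libraries) and CRLM1_hnRNPK (mean 137 CPM, 2 libraries), and its libraries lay below all 4 of theirs. CXCL1 ran from 29.2 ± 2.23 CPM in CRLM1_NC to 37.8 ± 2.98 in CRLM1_hnRNPK over 4 groups, of which CRLM1_NC, Ctrl_hnRNPK and Ctrl_NC overlapped with their neighbours, and then stepped to 77.5 ± 1.41 in Antisense_NC and 102 ± 12.5 in Antisense_hnRNPK. CXCL2, CXCL3 and CCL20 likewise had CRLM1_NC lowest and the Antisense groups highest, without overlap between Antisense_NC, Antisense_hnRNPK and the rest.

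NFKBIA had a different order. It was lowest in Antisense_hnRNPK at 252 ± 48.8 CPM, followed by CRLM1_NC at 377 ± 3.93 and Antisense_NC at 393 ± 6.69, and highest in Ctrl_NC at 510 ± 9.13. Antisense_NC and the next 3 groups in that order overlapped with their neighbours. BIRC3 ran from 226 ± 2.83 CPM in Ctrl_NC to 478 ± 118 in Antisense_hnRNPK, with overlap among the 3 hnRNPK groups. TNFAIP3 stayed between 83.1 ± 24.2 and 108 ± 11.2 CPM, and each group overlapped its neighbour in the order. REL was lowest in Ctrl_NC (26.9 ± 0.963 CPM) and highest in Antisense_hnRNPK (88.8 ± 23.4). RELB was highest in Antisense_NC (148 ± 5.53). Without the 2 libraries BIRC3 was highest in CRLM1_hnRNPK (mean 500.4 CPM), which still overlapped Antisense_hnRNPK, CRLM1_hnRNPK no longer overlapped Ctrl_NC for NFKBIA, and no neighbouring groups overlapped for RELB. The lowest and highest groups of the other members were the same.

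Per length, in FPKM, CXCL8 was below CXCL1 in all 9 NC libraries and above it in 8 of the 9 hnRNPK libraries. The ratio of CXCL8 to CXCL1 in the NC groups (mean ± SD, n = 3) was 0.829 ± 0.0400 for Ctrl_NC, 0.785 ± 0.110 for CRLM1_NC and 0.878 ± 0.0335 for Antisense_NC. It was 2.08, 2.55 and 1.19 in Ctrl_hnRNPK, 1.99, 2.16 and 0.937 in CRLM1_hnRNPK and 2.57, 2.16 and 2.20 in Antisense_hnRNPK. Every hnRNPK library was above the highest NC library, at 0.915. The third replicates of Ctrl and CRLM1 came closest, and in the latter CXCL1 stayed above CXCL8. The FPKM level of CXCL8 was 49.3 ± 1.27 in Antisense_NC and 202 ± 21.7 in Antisense_hnRNPK, and that of CXCL1 was 56.2 ± 0.828 and 88.1 ± 14.8. These ratios are a description, since CXCL8 levels in the CRLM1 groups entered the choice of the genes. CXCL8 has 32.5% GC and CXCL1 45.4%, and the ratios were not corrected for the GC trend. They were not compared with the ratios of other gene pairs.

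Genes with a pattern like CXCL8 were ranked by Pearson's r of log2(CPM + 1) over the 6 group means among 4251 genes, a description of 6 points that share libraries. The closest were SFR1 (r = 0.999), API5, SNAPC5, TFAM and MNAT1, and no member was among them. CXCL1 was closest to RNF149 (r = 0.992), NAF1, IFIH1, TTPAL and MBD4, with CXCL3 at rank 15 and CXCL2 at rank 29. NFKBIA was closest to ZFP36L1 (r = 0.983), BHLHE40, NR4A2, IGF2 and KAT2A. Without the third hnRNPK libraries of Ctrl and CRLM1 (4960 genes), SFR1 and TFAM stayed among the 5 closest to CXCL8 and TTPAL among those closest to CXCL1, where CXCL3 was at rank 3 and CXCL2 at rank 22. Of the 5 closest to NFKBIA, 4 stayed, without KAT2A.

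Other genes of the pathway moved in both directions. Of 32 NF-kappaB signalling genes, 21 passed higher and 6 lower in Antisense_NC against Ctrl_NC (34.4% and 32.2% of all genes). Their median log2 fold change was 0.38 beside 0.00 over all genes. NFKB1, which encodes the p105 precursor of p50, rose by 1.01 (adjusted p = 6.92e-21), from 68.0 to 141 CPM. NFKB2, the precursor gene of p52, rose by 0.52 (adjusted p = 4.35e-17). IRAK1, a kinase of the interleukin-1 receptor pathway, fell by 0.75 (adjusted p = 3.63e-18).

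In CRLM1_NC against Ctrl_NC 9 of the 32 passed higher and 4 lower (16.9% and 17.4% of all genes). Against Antisense_NC 5 passed higher and 19 lower (26.9% and 29.5% of all genes). NFKB1 fell by 0.96 (adjusted p = 3.95e-19) against Antisense_NC. With hnRNPK in Antisense cells 11 passed higher and 14 lower, against 33.4% and 30.5% of all genes. RELA, which encodes the p65 subunit, fell by 1.09 (adjusted p = 1.09e-06), from 341 to 162 CPM, and BCL3, an atypical IkappaB protein, fell by 1.48 (adjusted p = 1.02e-07). TAX1BP1, named by the same rule, rose by 0.78 (adjusted p = 1.11e-06), from 96.0 to 165 CPM. The chemokines rose in that comparison while RELA, BCL3 and NFKBIA fell, and the signalling genes as a list went both ways. Values of RELA, BCL3, TAX1BP1 and the targets, other chemokines, receptors and markers below are given without removal of the GC and length trend. In that comparison rho with GC was −0.71 over all genes. The part of the trend in the changes of these genes was not tested.

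Of 30 further NF-kappaB targets, 26 were tested. In Antisense_NC against Ctrl_NC 12 passed higher and 9 lower, against 34.4% and 32.2% of all genes. The lower ones included GADD45B, a stress-response gene, at −2.07 (adjusted p = 7.44e-34) and IER3, an early response gene, at −0.89 (adjusted p = 1.72e-25). TNFAIP2 rose by 1.02 (adjusted p = 1.04e-23). CRLM1_NC had 7 higher and 9 lower against Ctrl_NC (16.9% and 17.4% of all genes). Against Antisense_NC it had 10 higher and 11 lower (26.9% and 29.5% of all genes). With hnRNPK in Antisense cells 5 passed higher and 15 lower (33.4% and 30.5% of all genes), with a median of −0.40. Among them ZC3H12A, an RNase that degrades inflammatory transcripts, fell by 1.10 (adjusted p = 2.59e-07) and IRF1, an interferon-response transcription factor, fell by 0.89 (adjusted p = 1.44e-05). The direction of the 5 chemokines was thus not that of most tested targets in this comparison.

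Of 19 other chemokines, 9 were listed and 2 were tested in Antisense_NC against Ctrl_NC. CXCL16, a membrane-bound chemokine, was at 313 CPM in Ctrl_NC and 351 CPM in Antisense_NC, a rise of 0.12 (adjusted p = 3.89e-03), and fell by 1.23 with hnRNPK in Antisense cells (adjusted p = 4.87e-07), to 151 CPM. The other tested gene, CCL5, which encodes a T cell attractant, was below the level set for naming genes and is named after its values were seen. It was at 0.165, 0.240 and 0.312 CPM in Ctrl_NC and at 2.33, 1.86 and 1.94 CPM in Antisense_NC, a rise of 2.99 (SE 0.40, adjusted p = 2.92e-08), and had −0.34 with hnRNPK in Antisense cells (adjusted p = 0.236). Of 10 chemokine receptors only CXCR4, the receptor of CXCL12, had enough counts for a test. It was at 49.9 CPM in Ctrl_NC, 24.3 in CRLM1_NC, 10.1 in Antisense_NC and 3.03 in Antisense_hnRNPK. CXCR4 fell by 2.35 in Antisense_NC (adjusted p = 2.03e-24) and by 1.05 in CRLM1_NC (adjusted p = 1.31e-15), both against Ctrl_NC. The receptors CXCR1 and CXCR2 did not pass the filter on low counts.

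Epithelial markers moved in the comparison with the highest chemokine levels. Of 9 tested in Antisense_hnRNPK against Antisense_NC, 7 passed lower and 1 higher (30.5% and 33.4% of all genes). The summed level of the 10 listed was 3738 to 3906 CPM beside 5941 to 6259 CPM. KRT8 and KRT18, keratins of simple epithelia, fell by 0.87 each (adjusted p of 1.67e-06 and 5.99e-07). EPCAM, another marker of the list, went the other way, from 252 to 268 CPM in Antisense_NC to 290 to 361 CPM in Antisense_hnRNPK. Leukocyte markers summed to 2.27 to 2.35 CPM in Antisense_hnRNPK and to 2.53 to 2.71 CPM in Antisense_NC. Stromal markers summed to 15.9 to 19.2 CPM beside 32.9 to 38.4 CPM, and of the 2 tested COL1A1, a fibrillar collagen gene, fell by 1.26 (adjusted p = 6.00e-07) while ACTA2 had −0.15 (adjusted p = 0.525). The epithelial sum was also lower in Antisense_NC than in Ctrl_NC, where it was 7278 to 7529 CPM. Its largest terms were keratins: KRT8 went from a mean of 2668 CPM in Ctrl_NC to 1771 CPM in Antisense_NC, and KRT19 from 2710 to 2328 CPM. Less abundant markers of the list went the other way, so the sum does not stand for each marker. CDH1 rose by 0.62 and CDX2 by 1.28 (adjusted p of 1.70e-15 and 3.90e-11). Of 8 markers tested between these groups 3 passed higher and 4 lower, against 34.4% and 32.2% of all genes. The part of these marker changes in the chemokine results was not tested, and in bulk RNA fewer cells of a type and less RNA per cell cannot be told apart.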

How the data were processed

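RNA of 18 HCT116 libraries (6 groups of 3) was prepared by the authors with the KAPA RNA HyperPrep kit and sequenced as paired ends. Reads were trimmed with FASTX-Toolkit and aligned with TopHat2 to GRCh38 with Gencode gene models. The deposited counts are uniquely mapped reads per gene, in whole numbers, not normalized. FPKM values were deposited too and were divided by the authors by exon length and mapped fragments. Whether counting used the strand is not stated, so antisense or overlapping reads cannot be told apart. What makes the replicates separate beyond their labels is not given in the sources used here, so p-values measure the spread between these libraries.

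The test was that of edgeR 4.0.16 in R 4.3.3 (TMM, filterByExpr, robust quasi-likelihood F-test, two-sided), each comparison on its own groups, and p-values were adjusted over every gene tested (Benjamini-Hochberg). A gene passed at an adjusted p of at most 0.05. The SE of a log2 fold change was its absolute value divided by the square root of the F statistic. Beside an untested value the SE is therefore no separate evidence, and nothing is read from it. CPM was scaled by TMM over all libraries. The interaction of hnRNPK with background was fitted on 4 groups, 12 libraries. Alternatives were RLE size factors, no low-count filter, DESeq2 1.42.0, limma 3.58.1 on log2(FPKM + 1) and log2(FPKM + 0.1), 1 fit of all libraries, the replicate number as a block, removal of the trend over GC content and length, and each replicate left out. Group orders, likeness and GC relations without replicate 3 of Ctrl_hnRNPK and CRLM1_hnRNPK were added after seeing the data. The procedures were tested on simulated data. Promoters are from RefSeq. The members and the lists were chosen with earlier results of these data known. Named list genes were those with the smallest adjusted p, at most 4 per list and comparison.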

Additional observations from a re-analysis of the deposited data

Results flagged for a closer look

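The log2 fold change of NFKBIA with the hnRNPK construct had opposite signs in different backgrounds, which is a description. In CRLM1 cells it was 0.34 (SE 0.16), and 0.21 without CRLM1_hnRNPK replicate 3. All 3 hnRNPK libraries there were above all 3 NC libraries, as for 6.67% of genes. By edgeR's quasi-likelihood test the log2 fold change was −0.28 in Ctrl cells (SE 0.16, adjusted p = 0.354). It was −0.65 in Antisense cells (SE 0.11, adjusted p = 1.02e-04). All hnRNPK libraries were below the NC libraries of each, as for 8.11% and 33.1% of genes. Without Ctrl_hnRNPK replicate 3 the value in Ctrl cells was −0.32. With the GC and length trend removed the log2 fold change of NFKBIA was −0.12 in Ctrl cells and −0.47 in Antisense cells. In CRLM1 cells it kept its positive sign under that removal. The difference between CRLM1 and the other backgrounds was not tested, because the CRLM1 contrast chose the genes. The difference between the Antisense and Ctrl backgrounds, −0.39, had an adjusted p of 0.385 by edgeR's quasi-likelihood test.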

How the results depend on the processing

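Between Antisense_NC and Ctrl_NC the number of members that passed stayed within 1.5 times of 10 under every alternative, and between Antisense_hnRNPK and Antisense_NC within 1.5 times of 9. The single fit of all 18 libraries passed 0 of the 8 members tested for CRLM1_NC against Ctrl_NC (53 genes higher and 49 lower of 15668). It passed 3 of 8 for CRLM1_NC against Antisense_NC (1001 genes higher and 1356 lower). Leaving out 1 replicate gave 3 to 5 of 8 for CRLM1_NC against Ctrl_NC. For Ctrl_hnRNPK against Ctrl_NC, DESeq2 passed 1 member (1 of 26849 genes) and the fit without a low-count filter 2 (248 genes higher and 5 lower). Leaving out 1 replicate gave 0 to 6, the 6 without Ctrl_hnRNPK replicate 3 (59.6% of all genes). For the interaction, DESeq2 passed 2 (143 genes higher and 146 lower of 29494) and no filter 2 (81 genes higher and 310 lower). Removal of the GC and length trend passed 1 (121 genes higher and 108 lower of 15346). The same with the replicate block passed 1 (139 genes higher and 171 lower). Leaving out 1 replicate gave 0 to 6, and leaving out hnRNPK replicate 3 of both backgrounds 8 (16.0% of all genes). The causes were not tested.

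Signs turned as follows. With the GC and length trend removed, and with the replicate block added to that, BIRC3 was −0.053 and −0.054 in CRLM1_NC against Ctrl_NC, −0.11 and −0.11 in Antisense_NC against Ctrl_NC, and 0.0562 and 0.0564 in CRLM1_NC against Antisense_NC. REL was −0.0557 and −0.0782 in Ctrl_hnRNPK and −0.28 and −0.30 in Antisense_hnRNPK against their NC groups, and RELB was 0.17 and 0.17 in the latter and 0.30 and 0.32 in the interaction. On log2(FPKM + 0.1) and log2(FPKM + 1), TNFAIP3 was −0.12 and −0.11 in CRLM1_NC against Antisense_NC and CXCL2 was 0.0343 and 0.0272 in Ctrl_hnRNPK against Ctrl_NC. In the interaction on these scales BIRC3 was 0.17 and 0.18, REL 0.19 and 0.23 and RELB 0.23 and 0.21. REL in CRLM1_hnRNPK against CRLM1_NC was −0.32 with the GC and length trend removed, −0.34 with the block added to that, −0.0507 with the block alone, and −0.072 and −0.0175 on these 2 FPKM scales. REL in the interaction was 0.0181 by DESeq2, 0.00924 by RLE and 0.0104 with the replicate block, and RELB was 0.57 without hnRNPK replicate 3 of both backgrounds.

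Leaving out 1 replicate at a time turned the sign of values near 0 in Ctrl_hnRNPK against Ctrl_NC: CXCL1 ran from −0.178 to 0.00617, CXCL2 from −0.198 to 0.0364, CXCL3 from −0.30 to 0.33 and TNFAIP3 from −0.301 to 0.0681. TNFAIP3 in CRLM1_NC against Antisense_NC ran from −0.0233 to 0.127. In CRLM1_hnRNPK against CRLM1_NC, which was not tested, REL ran from −0.253 to 0.414 and TNFAIP3 from −0.187 to 0.00669. In the interaction BIRC3 ran from −0.27 to 0.16, REL from −0.23 to 0.22 and RELB from −0.38 to 0.51.

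Replicate numbers did not pair the libraries: deviations of same-numbered libraries from their group means correlated at −0.0709 to 0.0333 over 15563 genes. The block turned CXCL3 in Ctrl_hnRNPK against Ctrl_NC to −0.0486 and by itself changed no member's side of the threshold.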
